A study of Homo sapiens with 4 samples.

Results

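The genes described here are MGLL, other lipases that release fatty acids from glycerides and related esters, and the lipase coactivator ABHD5, which is counted with them. They were measured in HuH7, a human hepatocellular carcinoma cell line, before and after serial drug treatment in mice. The list holds 9 genes (MGLL, LIPA, LIPC, LIPE, LIPG, PNPLA2, PNPLA3, ABHD5 and ABHD6), and 8 of them, with 18 probesets, were measured among 19775 genes and 54613 probesets. LIPC, which encodes hepatic lipase, carried no named probeset in the annotation used and was not analysed here. A probeset was taken where the platform annotation gave a member as its single gene symbol and its name did not end in _x_at, a mark of possible cross-hybridization. The list was selected on a measured value, the low MGLL signal of F12 against the parental arrays, and was filled by function with lipases and this coactivator. The F12 against F0 values of all members, and the F12 against F6 values, which share the F12 array, are therefore given as a description without a test.

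F0 is the parental line (2 arrays, F0 (1) and F0 (2)), and F6 and F12 (1 array each) are the cells left after 6 and 12 rounds in which NOD/SCID mice carrying HuH7 tumors received JNJ-28841072, an inhibitor of VEGF receptors and aurora kinases, by intraperitoneal injection, and the resistant tumors were grafted onward. The phenotype label of F6 and F12 names sorafenib resistance instead, and calls each a subclone. No genetic modification is named for any group, and the age and sex of the mice and any vehicle-treated regrafts are not given in the labels. RNA came from tissue specimens, and whether the F0 samples were separate cultures or tumors is not stated in the labels. The spread between them may therefore be technical or biological, and its source was not tested. Drug, regrafting and time in mice cannot be told apart. With 1 array in F6 and in F12, neither has a replicate of its own.

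Stored triglyceride is broken down one fatty acid at a time. PNPLA2 (adipose triglyceride lipase) takes the first fatty acid from triglyceride with the help of its coactivator ABHD5, LIPE (hormone-sensitive lipase) acts on diacylglycerol, and MGLL (monoglyceride lipase) splits monoacylglycerol into glycerol and a free fatty acid. MGLL also degrades the endocannabinoid 2-arachidonoylglycerol, a task shared with ABHD6. LIPA works in the lysosome on cholesteryl esters and triglyceride, LIPG (endothelial lipase) acts outside the cell on lipoprotein phospholipids, and PNPLA3 is a lipid droplet protein of hepatocytes.

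The values are log2 signals, so a difference of 1 is 2-fold, and signals under 6 were treated as near background (array medians lay between 4.67 and 4.85). The parental arrays stood far apart. Across genes, which are not independent replicates, F0 (1) and F0 (2) correlated at r = 0.687, against 0.976 for F12 with F0 (2) and 0.917 for F6 with F0 (1). A total of 59.1% of all genes and 5 of the 8 members (LIPA, PNPLA2, PNPLA3 and, at signals under 6 on both, LIPE and LIPG) differed at least 2-fold between the parental arrays. A member is therefore called lower or higher in F6 or F12 where its signal was 2-fold or more outside both F0 signals, on the same side. Liver markers had medians over 8 measured markers between 9.53 and 12.3, and transferrin (TF) read 12.16, 14.24, 13.33 and 14.01 (in the order F0 (1), F0 (2), F6, F12, used for all runs of 4 values below). Liver markers differed between the parental arrays in both directions, with AFP at 8.88 and 13.73 and SERPINA1 at 12.43 and 11.20 on F0 (1) and F0 (2). SERPINA1 was also more than 2-fold above both F0 arrays in F6 (13.82). The apolipoprotein APOA1 was the liver marker that came near background, at 6.57, 5.20, 6.17 and 5.28. Markers of other cell types had medians between 4.16 and 5.41 for 6 adipocyte markers, 4.11 and 5.57 for 5 macrophage markers, 4.60 and 5.61 for 5 endothelial markers and 4.25 and 5.55 for 5 fibroblast markers. The defining adipocyte marker ADIPOQ read between 1.93 and 2.39 and LEP between 3.68 and 4.88, while CIDEC, a lipid droplet protein, was above 6 on all arrays (9.94, 7.34, 9.50 and 7.32). The endothelial marker PECAM1 was also above 6 throughout (6.16, 6.33, 6.52 and 6.92), CDH5 of the same list read between 2.41 and 3.31, and MARCO, CLDN5 and PDGFRB passed 6 on F0 (1) alone. The part of other cells in the MGLL values was not tested. The arrays carry human probes, so mouse host cells were seen only as far as their RNA bound these.

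MGLL was lower in F12 than on both parental arrays, and F6 lay between. Its signal was 9.60 on F0 (1), 9.42 on F0 (2), 7.57 on F6 and 5.25 on F12. The parental arrays were close for this gene (mean 9.51 ± 0.12, SD, n = 2), F6 lay below both, and F12 lay below F6. The measured distance of F12 from the F0 mean was -4.26. As the F12 signal was near background, its size is not exact, and taking F12 at the near-background level of 6 gives a signal at least 11.4-fold lower than the F0 mean. In bulk RNA, fewer cells with MGLL and less MGLL RNA per cell cannot be told apart.

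The remaining MGLL probeset, 225102_at, also had F6 below both parental arrays and F12 below F6, though its parental arrays stood the other way round. It read 8.79 on F0 (1), 9.43 on F0 (2), 7.10 on F6 and 5.83 on F12 (F0 mean 9.11 ± 0.45, SD, n = 2). Its F6 signal differed from the F0 mean by -2.01, against -1.94 for 211026_s_at, the probeset that stands for the gene. Its F12 signal differed by -3.27, or was at least 8.61-fold lower with F12 set to 6. Of all 19775 genes, MGLL lay farthest below both F0 arrays in F12 (-4.17 from the nearer of them). This rank restates the value the list was selected on.

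F6 against F0 asks what differed after 6 rounds. By the probesets standing for the genes, MGLL was the member called lower (3.60-fold below the nearer F0 array) and 0 members were called higher. Other probesets of ABHD6 (221679_s_at) and PNPLA3 (220675_s_at) did pass the 2-fold rule, at 2.17-fold and 2.06-fold above the nearer F0 array. By the standing probesets, 5 of 8 members lay above both F0 arrays by less than 2-fold. Among all genes 13.3% lay above both F0 arrays by any amount, and 0.561% were called lower and 0.576% higher in F6 by this rule. The count of 5 was not tested and depends on the probeset taken. PNPLA3 is in it by 0.04 and LIPG from F0 signals under 6. On 213805_at and 213935_at, ABHD5 was not above both F0 arrays in F6. The F6 comparison uses the same F0 arrays as the value the list was selected on, so its MGLL values are not independent of that choice. In limma, fitted over all genes with Benjamini-Hochberg adjustment, MGLL differed by -1.94 between F6 and the F0 mean (SE 1.74, adjusted p = 1), and the other 7 members also had an adjusted p of 1. The test passed 0% of genes, with 0 of 19775 past an adjusted p of 0.05 and 7 with an unadjusted p under 0.05. Its error comes from 1 residual degree of freedom and is pooled over genes, so the SE of 1.74 is not the spread of MGLL itself, with its F0 SD of 0.12.

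In F12, MGLL was again the member called lower and 0 members were called higher, against 1.37% of all genes called lower and 1.93% higher. Lower than both F0 arrays by at least 2-fold in F6 and in F12 alike were 38 genes (0.192%), of which MGLL was 1. The median difference of the 8 members from the F0 mean was 0.77 in F6 and 0.14 in F12, beside 0.06 and -0.24 over all genes. Between the later and earlier rounds, the measured F12 minus F6 difference of MGLL was -2.32 by 211026_s_at and -1.26 by 225102_at. With F12 set to 6, F12 was at least 2.98-fold and 2.14-fold lower than F6 by these probesets. PNPLA2 was the other member at least 2-fold lower in F12 than in F6, and 0 were 2-fold higher, against 14.7% of all genes lower and 20.2% higher. The absence of members called higher depends on both parental arrays, and in F6 also on the probeset taken. Without F0 (1), 2 members were 2-fold higher in F6. Without F0 (2), 4 were in F6 and 3 in F12, with 3 then lower in F12. LIPE, at signals under 6 on all arrays, was among the 2 higher without F0 (1) and the 3 lower without F0 (2). Of all genes 15.8% were 2-fold above and 20.3% below F0 (2) in F6, and 17.1% above and 4.13% below F0 (1). In F12 the shares were 2.99% above and 3.78% below F0 (2), and 25.0% above and 32.0% below F0 (1). MGLL was lower in F6 and in F12 against either parental array, which follows from its call, since the rule needs both.

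**Figure D1:**
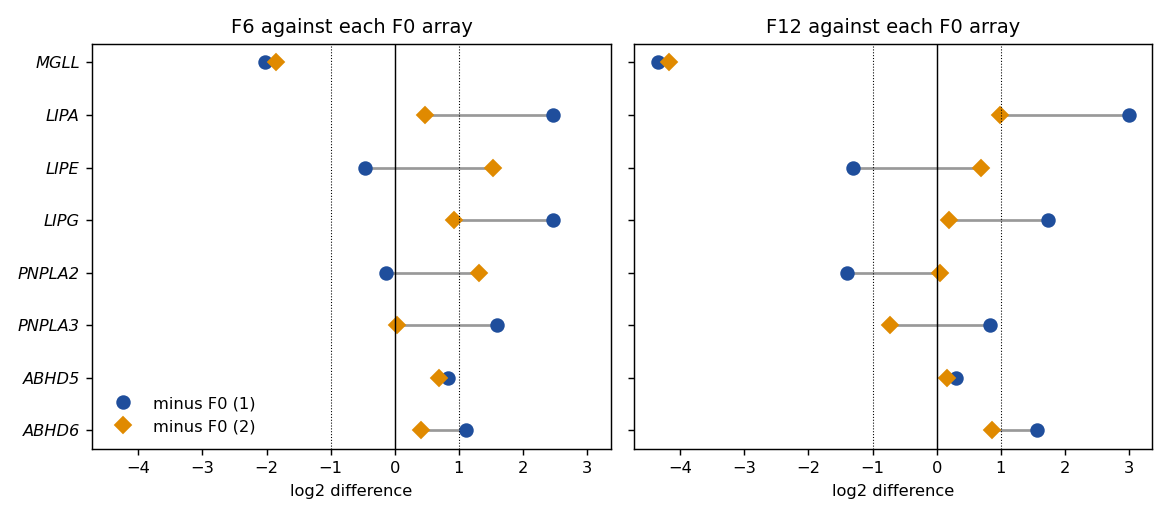
Log2 difference (horizontal axis) of F6 (left) and F12 (right) from F0 (1), circles, and from F0 (2), diamonds, for the probeset standing for each of the 8 measured members. Dotted lines mark 2-fold; MGLL lies at -2.02 and -1.85 in F6 and at -4.35 and -4.17 in F12, while each of the other 7 lies within 2-fold of at least 1 parental array.

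On the probesets standing for LIPA and ABHD6 the 4 arrays had the same order, F0 (1), F0 (2), F6 and F12 from low to high, and neither gene met the 2-fold call on these probesets. Their promoters are shown because of this shared order, which 1 of the ABHD6 probesets with a signal of at least 6 did not have; MGLL has no entry in the promoter table used. Each run is the 250 bases before a start site in RefSeq (build GRCh38.p14), 5′ to 3′ on the gene's strand, with capitals for the GC box GGGCGG and the CCAAT box on either strand. The table lists 3 starts for LIPA, and the innermost is shown (chr10:89251776-89252025, minus strand); ABHD6 has 1 (chr3:58237542-58237791, plus strand).

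LIPA: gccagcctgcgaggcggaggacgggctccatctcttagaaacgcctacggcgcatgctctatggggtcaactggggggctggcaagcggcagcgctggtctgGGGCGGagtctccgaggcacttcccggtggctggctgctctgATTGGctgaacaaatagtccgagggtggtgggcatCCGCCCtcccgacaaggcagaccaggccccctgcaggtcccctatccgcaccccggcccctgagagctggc

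ABHD6: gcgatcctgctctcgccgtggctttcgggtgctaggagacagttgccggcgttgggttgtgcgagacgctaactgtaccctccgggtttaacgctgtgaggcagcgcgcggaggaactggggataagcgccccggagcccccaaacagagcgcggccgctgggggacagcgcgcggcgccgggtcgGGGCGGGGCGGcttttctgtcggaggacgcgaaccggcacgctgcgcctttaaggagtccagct

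The LIPA window holds 2 GC boxes and 1 CCAAT box, and the ABHD6 window holds 2 GC boxes, which overlap by 1 base, and 0 CCAAT boxes. Among 35116 promoter windows of this length, 42.6% hold a GC box and 32.0% a CCAAT box, so either is common. The LIPA window has 16 CpG dinucleotides and the ABHD6 window 32, against a median of 11. The arrays do not tell which start was used, and these matches describe letters alone.

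LIPA, the lysosomal acid lipase, read 7.09 on F0 (1), 9.10 on F0 (2), 9.56 on F6 and 10.08 on F12. F6 and F12 lay above both parental arrays, F12 by 1.98-fold over F0 (2), just short of the 2-fold call. Its parental arrays differed by 2.01 (mean 8.09 ± 1.42, SD, n = 2), which is more than the step from F0 (2) to F12. The other LIPA probeset, 236156_at, read between 2.76 and 3.96 and carried no signal above the near-background level.

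ABHD6, a membrane-bound monoacylglycerol lipase, read 5.78 on F0 (1), 6.48 on F0 (2), 6.90 on F6 and 7.35 on F12 by 221552_at. F12 was 1.82-fold above F0 (2), which is under the 2-fold call, and the F0 signals were close to 6. Of its other 3 probesets, 45288_at kept this order (4.73, 6.31, 6.53 and 7.03), whereas 221679_s_at read 5.68, 4.37, 6.80 and 4.69 and was highest in F6. Probeset 221678_at stayed between 2.41 and 3.41. The ABHD6 probesets thus disagreed on F12, where 221679_s_at lay between the parental arrays. They also disagreed on F6, where 221679_s_at was 2.17-fold above the nearer F0 array, past the 2-fold call, against 1.33-fold for 221552_at.

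LIPG, the endothelial lipase, read 4.27 and 5.81 on the F0 arrays, 6.74 on F6 and 6.01 on F12. F6 lay 1.90-fold above F0 (2), but both parental signals were near background, so the size of this step is not known. Together with LIPA, ABHD5 and ABHD6, LIPG made up the 4 members above both F0 arrays in F6 and in F12 by any amount, a pattern of 3.96% of all genes. This count was made after the values were seen, and it rests on the probesets standing for the genes. ABHD5 (213805_at and 213935_at) and ABHD6 (221679_s_at) have other probesets with F12 between the parental arrays.

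The triglyceride lipase PNPLA2 followed the split between the parental arrays. Its probeset 39854_r_at read 9.22 on F0 (1), 7.77 on F0 (2), 9.08 on F6 and 7.81 on F12. F6 was close to F0 (1), F12 was close to F0 (2), and both lay inside the parental range (mean 8.49 ± 1.03, SD, n = 2). The step from F6 to F12 (-1.27) was smaller than that from F0 (1) to F0 (2) (-1.45). This rests on 1 probeset. The PNPLA2 probeset left out for its _x_at name, 212705_x_at, read 6.22, 5.22, 5.66 and 4.78, with F12 below both F0 arrays by less than 2-fold.

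ABHD5, the coactivator of PNPLA2, read 6.19 and 6.34 on the F0 arrays, 7.03 on F6 and 6.50 on F12 by 218739_at. Its parental arrays were close (SD 0.10, n = 2) and F6 lay 1.62-fold above the nearer of them. This order did not hold over its probesets. Probeset 213805_at read 3.04, 6.93, 3.97 and 6.81, and 213935_at read 3.96, 6.06, 3.84 and 5.21, both with F6 near F0 (1) and F12 nearer F0 (2). Probeset 232862_at stayed between 2.20 and 2.66.

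PNPLA3 read 7.78 on F0 (1), 9.35 on F0 (2), 9.39 on F6 and 8.62 on F12 by 233030_at. F6 matched the higher parental array within 0.04 and F12 lay between the parental arrays. By 220675_s_at it read 7.21, 7.59, 8.64 and 6.87, so that F6 was 1.04 above the higher F0 array and F12 was -0.34 from the lower. On this probeset F6 thus met the 2-fold call, which 233030_at did not. On both probesets F12 was lower than F6, with differences of -0.77 and -1.77.

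LIPE, the diacylglycerol lipase best known from fat cells, stayed under 6 on all arrays. Its probesets read 5.67, 3.68, 5.20 and 4.37 (208186_s_at) and 4.84, 3.64, 4.06 and 3.56 (213855_s_at). No difference is read from signals at this level.

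By a fixed measure of likeness, the root mean square difference over the 4 arrays after each gene was centred on its own mean, the nearest of 11927 genes to MGLL were PRR15L (0.489), TFF1 (0.596), SOCS3 (0.606), CALML4 (0.666) and TFPI2 (0.682). With 4 arrays this describes these samples and gives no test. PRR15L read 8.81, 7.78, 5.92 and 4.67. The cytokine signalling inhibitor SOCS3 read 7.79, 6.66, 5.20 and 4.09, and the trefoil peptide TFF1 read 8.0, 6.86, 6.08 and 4.34. The closeness of the parental arrays seen for MGLL was shared by TFPI2, a protease inhibitor (5.97 and 6.02, then 4.09 on F6 and 3.31 on F12), at signals near 6 or below. Each of these 5 genes was lower on F12 than on F6 and lower on F6 than on both parental arrays.

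**Figure D2:**
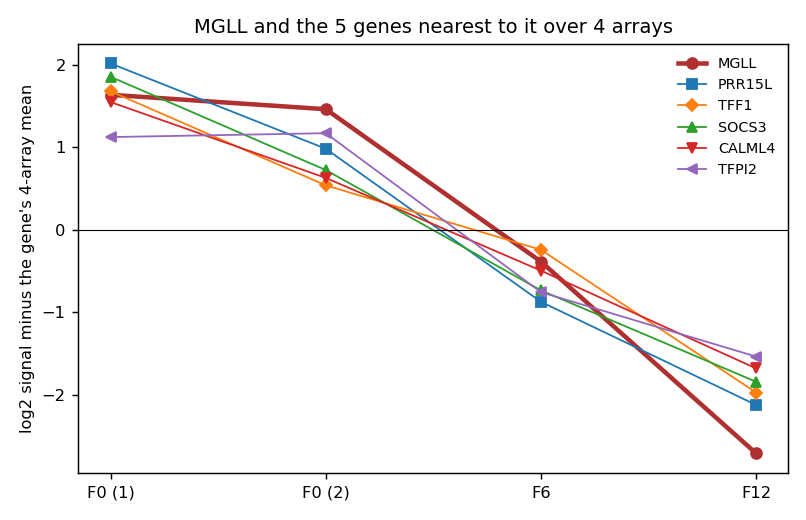
Log2 signal minus each gene's own mean over the 4 arrays (vertical axis) for MGLL and the 5 nearest genes on the 4 arrays (horizontal axis). Lines join the values of a gene; F12 is the lowest point of each, and MGLL and TFPI2 have the smallest steps between the parental arrays (-0.17 and 0.05).

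Genes around these lipases were taken from lists of the same pathway, with 97 measured genes in all. In F6, 5 of the 97 lay at least 2-fold below both F0 arrays and 0 above, and in F12, 2 lay below and 2 above. Over all genes the shares were 0.561% below and 0.576% above in F6, and 1.37% below and 1.93% above in F12. The list counts depended on the parental array: without F0 (1) they were 20 below and 23 above in F6 and 5 and 4 in F12, and without F0 (2) they were 9 and 11 in F6 and 39 and 21 in F12. Among the other glyceride and ester lipases (21 measured, 10 with a signal of at least 6 on some array), CES1, a liver carboxylesterase, read 8.39 and 9.01 on the F0 arrays, 6.03 on F6 and 6.44 on F12. It was below both parental arrays in F6 and in F12, as MGLL was, but F12 was not lower than F6. AADAC, an esterase of the endoplasmic reticulum, read 6.91 and 9.23, then 5.68 and 5.97, which meets the call in F6 and not in F12. LIPH was called in F6 as well, at signals under 6 (5.27 and 5.82, then 4.10).

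The monoacylglycerol hydrolase ABHD12 read 10.55 on F0 (1), 7.16 on F0 (2), 10.19 on F6 and 8.04 on F12, inside the parental range. The diacylglycerol lipases, which form 2-arachidonoylglycerol, read 6.49, 5.66, 6.13 and 5.66 (DAGLA) and 9.16, 5.72, 8.54 and 6.24 (DAGLB). Neither had a signal 2-fold beyond both parental arrays. Among monoacylglycerol signalling genes (9 measured, 4 with a signal of at least 6), 0 with such a signal were called; PLA2G4A, which releases arachidonate from phospholipid, read 2.99, 3.95, 3.79 and 5.90 and met the call in F12 at signals under 6.

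Of 20 lipid droplet proteins and lipolysis regulators, 0 were called in F6 or F12. The main hepatocyte droplet coat protein PLIN2 read 11.20, 12.29, 11.39 and 12.64, and G0S2, an inhibitor of PNPLA2, read 7.14, 7.81, 7.15 and 8.06. HILPDA, a droplet protein that also inhibits PNPLA2, read 10.16, 9.18, 9.17 and 9.48. FITM2, which aids droplet formation, was above both parental arrays by less than 2-fold (7.70 and 7.68, then 8.62 and 8.40).

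Triglyceride synthesis had 1 called gene of 16. GPAM, a mitochondrial acyltransferase for the entry step of glycerolipid synthesis, read 4.80 on F0 (1), 10.19 on F0 (2), 6.62 on F6 and 11.31 on F12, so the call in F12 rests on a step of 1.11 beside a parental difference far larger than it. DGAT1 and DGAT2, which make triglyceride from diacylglycerol, read 10.82, 7.88, 10.23 and 7.34, and 10.60, 7.25, 10.19 and 8.74.

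Among 26 genes of fatty acid uptake, activation and oxidation, FABP1, the liver fatty acid binding protein, was below both parental arrays in F6 and in F12. It read 12.26 and 13.06 on the F0 arrays, 11.14 on F6 and 10.56 on F12, so that, as for MGLL, F6 lay below both parental arrays and F12 below F6. CPT1A, which commits fatty acids to mitochondrial oxidation, read 8.09 and 8.71, then 6.84 on F6 and 9.23 on F12. The glycerol handling genes (5 measured) had 0 calls, with the glycerol channel AQP3 at 9.99, 8.32, 7.80 and 9.12.

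**Figure D3:**
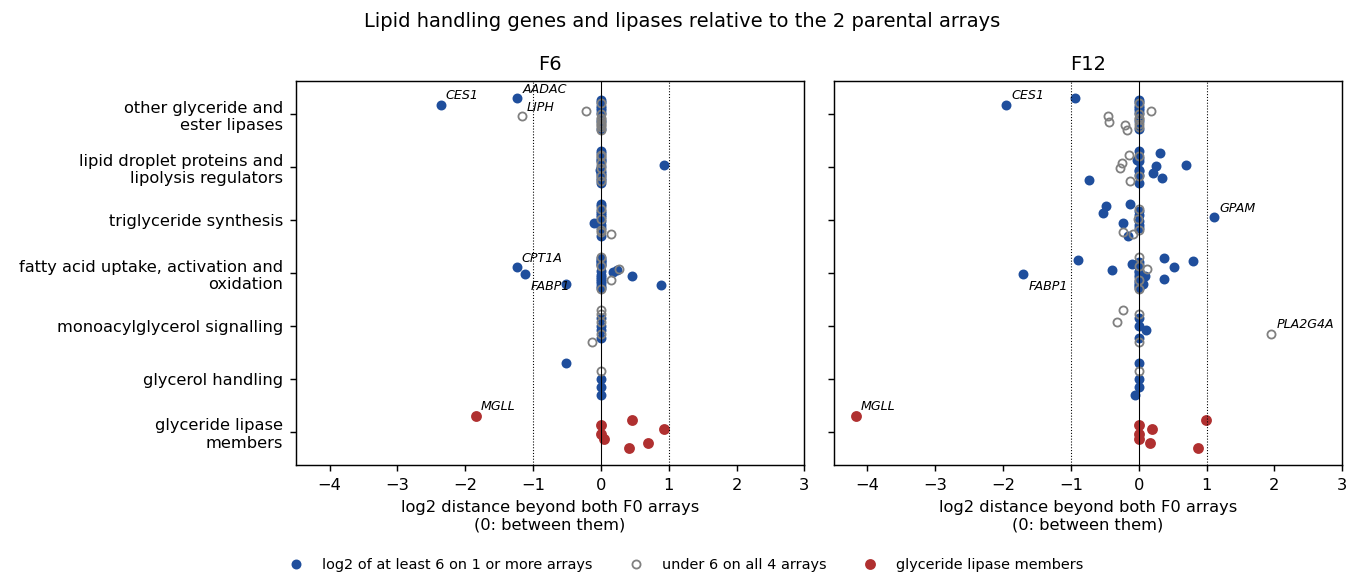
Log2 distance beyond both F0 arrays (horizontal axis, 0 where a gene lies between them) in F6 and F12 for the genes of 6 pathway lists and the 8 measured lipase members (rows). Filled blue points have a signal of at least 6 on some array, open points do not, red points are the members, and dotted lines mark 2-fold; MGLL lies at -1.85 in F6 and -4.17 in F12, and CES1, at -2.36 and -1.95, is the lowest of the list genes in both.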

How the data were processed

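Messenger RNA was measured on 4 arrays. The authors' deposited values are log2 signals per probeset, made with RMA in affy per the submitters' processing notes; RMA corrects background, quantile-normalizes and summarizes probes. Their versions and options: not given in the sources used here. Quantile normalization sets all arrays to nearly the same distribution, so shifts shared by most genes are not seen. Array values have no read depth, and the number of arrays limits precision.

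The platform annotation gave 1 symbol for 41091 of 54613 probesets, several for 1801 and none for 11721; 41037 matched RefSeq (GRCh38.p14) by Entrez number. Each of 19775 genes was represented by its probeset with the highest mean, passing over _x_at names where others existed. The test of F6 against F0 used lmFit and eBayes of limma 3.58.1 (R 4.3.3; the F0, F6 and F12 groups, Benjamini-Hochberg over all genes, threshold 0.05). Its code was run on simulated data with a much narrower spread than these arrays have. That run does not show which differences the test could find here. The spread comes from the F0 arrays alone and is taken to hold for F6 and F12. The 2-fold rule needs a log2 difference of at least 1 from both F0 arrays.

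Members and lists were chosen with earlier results of these data known. Named were all members, the 5 genes nearest MGLL among those with a signal of at least 6 on some array, and list genes past the 2-fold rule or as examples. Alternatives were the mean of probesets, _x_at probesets kept, median centring, each F0 array alone, a 4-fold rule, a minimum signal of 6, and for limma also every probeset and a trended spread.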

Additional observations from a re-analysis of the deposited data

Results flagged for a closer look

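For some probesets F6 and F12 lay on opposite sides of both parental arrays, among those with a signal of at least 6 on some array. These differences were not tested, and with 1 array each they have no replicate. PNPLA3 by 220675_s_at had an F12 minus F6 difference of -1.77 (log2), with F6 at 1.04 from the higher F0 array and F12 at -0.34 from the lower. The probeset standing for PNPLA3 did not show this. CPT1A differed by 2.39 between F12 and F6, with F6 at -1.24 from the lower F0 array and F12 at 0.53 from the higher. Smaller distances beyond the parental range were seen for SLC27A2, a fatty acid transporter (F12 minus F6 of 2.74), CPT2, the inner carnitine palmitoyltransferase (-0.76), and the liver marker FGB (3.17). SLC27A2 read 5.72, 7.87, 5.20 and 7.94, and FGB read 8.35, 11.07, 8.10 and 11.27. For both, F6 was close to F0 (1) and F12 close to F0 (2). FGB lay beyond the parental range by only -0.26 in F6 and 0.20 in F12.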

How the results depend on the processing

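MGLL stayed below both F0 arrays in F6 and F12 by at least 2-fold with the mean of probesets and with median centring. The 4-fold rule left 0 members below in F6. Either F0 array alone, _x_at probesets kept and a minimum signal of 6 could not change the MGLL call. The rule already needs both F0 arrays, MGLL has no _x_at probeset, and its F0 signals are above 6. The F12 call also restates the value the list was selected on. With the mean of probesets the MGLL difference was -3.77 for F12 from F0 and -1.79 for F12 from F6. Without F0 (1), 2 members were called higher in F6 and 0 in F12, and 1 was called lower in each. Without F0 (2), 4 were called higher in F6 and 3 in F12, and 1 and 3 lower. LIPE, at signals under 6 on all arrays, was among the 2 higher in F6 without F0 (1) and the 3 lower in F12 without F0 (2). Of the 97 list genes, 20 were below and 23 above in F6 without F0 (1), and 9 and 11 without F0 (2); in F12 these were 5 and 4 without F0 (1), and 39 and 21 without F0 (2). The 4-fold rule left 1 below in F6 and 0 on either side in F12. With the mean of probesets 3 were below and 1 above in F6, and with a minimum signal of 6, 1 was above in F12. The cause was not tested. In limma 0 genes passed under each alternative. With the mean of probesets or median centring, 36 values of the members other than MGLL moved by less than the F0 spread and 6, all of ABHD5 or ABHD6, by more. The F0 spread is wide, so this says little of stability. With the mean of probesets the F6 difference of ABHD5 from F0 was -0.27 in place of 0.76 and the F12 difference of PNPLA3 was -0.24 in place of 0.05. Limits: F6 and F12 have 1 array each, both MGLL probesets are near background in F12, and the ABHD5, ABHD6 and PNPLA3 probesets disagree. The limma test was not run without an F0 array, since no residual degree of freedom would be left. No paired analysis was possible because F6 and F12 have 1 array each.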
